A study of Mus musculus with 7 samples.

Results

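The cell cycle genes described here are 34 genes of mouse liver, taken as the rows of the 7 deposited gene tables that carry their symbols. All 34 had exactly 1 row, out of 37468 rows per table and 33887 gene symbols. By role, 4 are regulators of the G1/S transition (Ccnd1, Ccne1, Ccne2, E2f1) and 10 serve S phase (Mcm2, Mcm3, Mcm4, Mcm5, Mcm6, Mcm7, Pcna, Rrm1, Rrm2, Tyms). These 14 are called the S phase set below. The other 20 act in G2 and mitosis and are called the mitotic set (Mki67, Top2a, Cdk1, Ccna2, Ccnb1, Ccnb2, Birc5, Aurka, Aurkb, Plk1, Bub1, Bub1b, Cdc20, Ube2c, Tpx2, Kif11, Kif20a, Nusap1, Cenpe, Foxm1).

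All libraries came from liver RNA of C57BL/6 mice. The group Myod1_active is 1 library from a SunTag-dCas9 mouse labelled as Myod1 activated, and Myod1_control is 2 control libraries of that experiment, also from SunTag-dCas9 mice. SunTag is 2 libraries of SunTag-dCas9 mice, and WT is 2 libraries of wild-type mice. dCas9 is a Cas9 that binds DNA through a guide RNA without cutting it, and SunTag is a chain of peptide tags that recruits effector proteins to it. How Myod1 was activated, what the controls received, the promoter that drives dCas9, and the age and sex of the mice are not stated. Myod1_active has no replicate, and nothing says whether the paired libraries of the other groups came from separate mice, so p-values measure the spread between these libraries, which may be technical. Myod1 itself had an FPKM of 3.52 in Myod1_active and was listed at 0 in the other 6 libraries.

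A cell that leaves quiescence makes D-type cyclins, which with their kinases release E2F factors from the Rb protein. E2F factors then turn on genes for loading and running the replication machinery, and a later wave of genes, bound before that by the DREAM complex and then by B-Myb and Foxm1, is made in G2 and mitosis. Adult liver is mostly quiescent: hepatocytes divide rarely, but re-enter the cycle after loss of tissue, and some of the mitotic transcripts of a liver can come from Kupffer cells, endothelial cells or blood cells. In bulk RNA, fewer cells of a type and less RNA per cell cannot be told apart.

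The promoters of these genes were read because the sets below differ in how they vary together. RefSeq windows on GRCm38.p6, from 250 bases before to 50 after a start, matched 26 of the 34 members with 27 windows. The CHR element, a docking site of the DREAM complex, was searched as TTTGAA, the CCAAT box as CCAAT, and the E2F element as TTTNNCGC with each N held to C or G, each on both strands. The CHR letters were in 10 of 15 windows of the mitotic set (66.7%) and in 1 of 12 windows of the S phase set, that of Mcm2, against 17.9% of all 32851 windows. The E2F letters were in 4 of 12 S phase windows (33.3%), those of Mcm3, Mcm5, Mcm6 and Mcm7, and in 1 of 15 mitotic windows, that of Cdk1, against 2.26% of all windows. The CCAAT box was in 13 of 15 mitotic windows (86.7%) and in 9 of 12 S phase windows (75.0%), against 37.4% of all windows. These matches describe letters in a window and are not evidence of binding.

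Mitotic promoters are shown for Cdc20 (chr4:118437294-118437593, minus strand), Ccnb2 (chr9:70421505-70421804, minus strand) and Ube2c (chr2:164769679-164769978, plus strand). They were picked among windows that hold CHR letters, so they do not show whether the letters go with variation between libraries. Ccnb1 and Cenpe, whose windows lack CHR letters, also varied, at 0.221 to 2.11 and 0.0249 to 0.232 FPKM. CHR and CCAAT letters of either strand are in capitals. S phase promoters are shown for Mcm3 (chr1:20820263-20820562, minus strand) and Mcm5 (chr8:75109259-75109558, plus strand), with E2F and CCAAT letters in capitals. These were likewise picked among the windows with E2F letters. In Cdc20 the CHR letters begin 18 bases before the start, and in Ube2c they lie on the opposite strand with their first base 29 before it. Each sequence runs 5′ to 3′ on the strand of its gene.
Cdc20: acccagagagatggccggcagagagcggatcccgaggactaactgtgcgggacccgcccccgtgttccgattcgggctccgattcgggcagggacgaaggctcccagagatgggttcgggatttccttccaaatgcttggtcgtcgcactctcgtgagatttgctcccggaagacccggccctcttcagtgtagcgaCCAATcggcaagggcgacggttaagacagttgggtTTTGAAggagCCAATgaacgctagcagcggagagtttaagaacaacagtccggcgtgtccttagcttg
Ccnb2: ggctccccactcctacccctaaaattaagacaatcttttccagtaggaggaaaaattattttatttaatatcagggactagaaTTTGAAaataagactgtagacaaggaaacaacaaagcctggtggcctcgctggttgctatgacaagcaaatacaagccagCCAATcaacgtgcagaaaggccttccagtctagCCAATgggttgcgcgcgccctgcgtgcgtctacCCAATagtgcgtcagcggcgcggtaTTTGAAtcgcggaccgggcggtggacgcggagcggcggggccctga
Ube2c: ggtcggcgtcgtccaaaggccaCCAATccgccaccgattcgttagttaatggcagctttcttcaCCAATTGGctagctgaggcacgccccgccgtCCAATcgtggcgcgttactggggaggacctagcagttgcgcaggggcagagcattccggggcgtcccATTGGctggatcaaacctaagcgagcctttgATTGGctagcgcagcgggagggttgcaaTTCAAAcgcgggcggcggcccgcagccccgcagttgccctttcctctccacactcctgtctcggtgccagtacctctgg
Mcm3: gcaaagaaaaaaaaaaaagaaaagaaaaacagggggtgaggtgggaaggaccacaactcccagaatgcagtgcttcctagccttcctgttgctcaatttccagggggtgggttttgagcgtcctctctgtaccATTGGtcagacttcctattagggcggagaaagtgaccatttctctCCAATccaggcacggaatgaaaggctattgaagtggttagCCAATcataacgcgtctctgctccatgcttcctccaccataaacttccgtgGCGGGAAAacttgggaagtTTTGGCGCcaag
Mcm5: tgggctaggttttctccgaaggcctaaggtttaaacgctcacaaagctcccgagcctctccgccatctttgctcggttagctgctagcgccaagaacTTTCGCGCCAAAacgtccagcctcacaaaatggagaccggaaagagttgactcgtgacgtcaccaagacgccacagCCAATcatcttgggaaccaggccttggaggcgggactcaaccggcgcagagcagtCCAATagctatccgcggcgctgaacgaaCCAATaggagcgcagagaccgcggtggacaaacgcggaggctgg

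Expression was given as FPKM, fragments scaled to transcript length and library size, with a lower and an upper bound for each value. Read totals were not in the tables, so depth is unknown. The libraries listed 12971 to 13804 genes at an FPKM of 1 or more. The hepatocyte markers (10 genes, Alb and Apoa1 among them) summed to 47700 FPKM in Myod1_active, 50960 and 52870 in Myod1_control, 71570 and 70410 in SunTag, and 73500 and 83680 in WT, so the labelled tissue was present in all. The 3 Myod1 libraries stood apart from the other 4: their log2 values correlated with those of SunTag and WT libraries at 0.866 to 0.903 across genes, which are not independent, and Xist was at 0.00420 to 0.324 FPKM in them and at 56.9 to 82.2 FPKM in SunTag and WT, with Y-linked Ddx3y at 6.97 to 9.23 FPKM and at 0 to 0.0765 FPKM. Kupffer cell markers (10 genes) summed to 71.2 FPKM in Myod1_active, 63.4 and 71.9 in Myod1_control, 524 and 329 in SunTag, and 307 and 389 in WT. Experiment, sex and cell makeup therefore cannot be told apart between the Myod1 libraries and the rest. SunTag replicate 1 also stood apart, as its members show.

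The cell cycle genes were low in every library, and the S phase set was the more abundant. Mean FPKM over the 7 libraries ran from 0.0861 for Bub1, a spindle checkpoint kinase, to 18.4 for Pcna, the sliding clamp of DNA polymerase. An FPKM of 1 in at least 1 library, the filter for testing, was reached by 26 members, 13 in each set. Below it in every library stayed Ccne1, Mki67, Bub1, Tpx2, Kif11, Nusap1, Cenpe and Foxm1. All 238 member values had an OK status and lay within their own deposited bounds. The span of 12 members overlaps another gene of the tables, among them Mcm7 (with Ap4m1, Cops6, Mir106b, Mir25 and Mir93), Cdc20 (Elovl1) and Ube2c (Tnnc2). The tables also list Pcna-ps1, Pcna-ps2 and Ccnb2-ps. Use of strand was not stated, so part of the reads of these members may belong to their neighbours or copies.

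**Figure D1:**
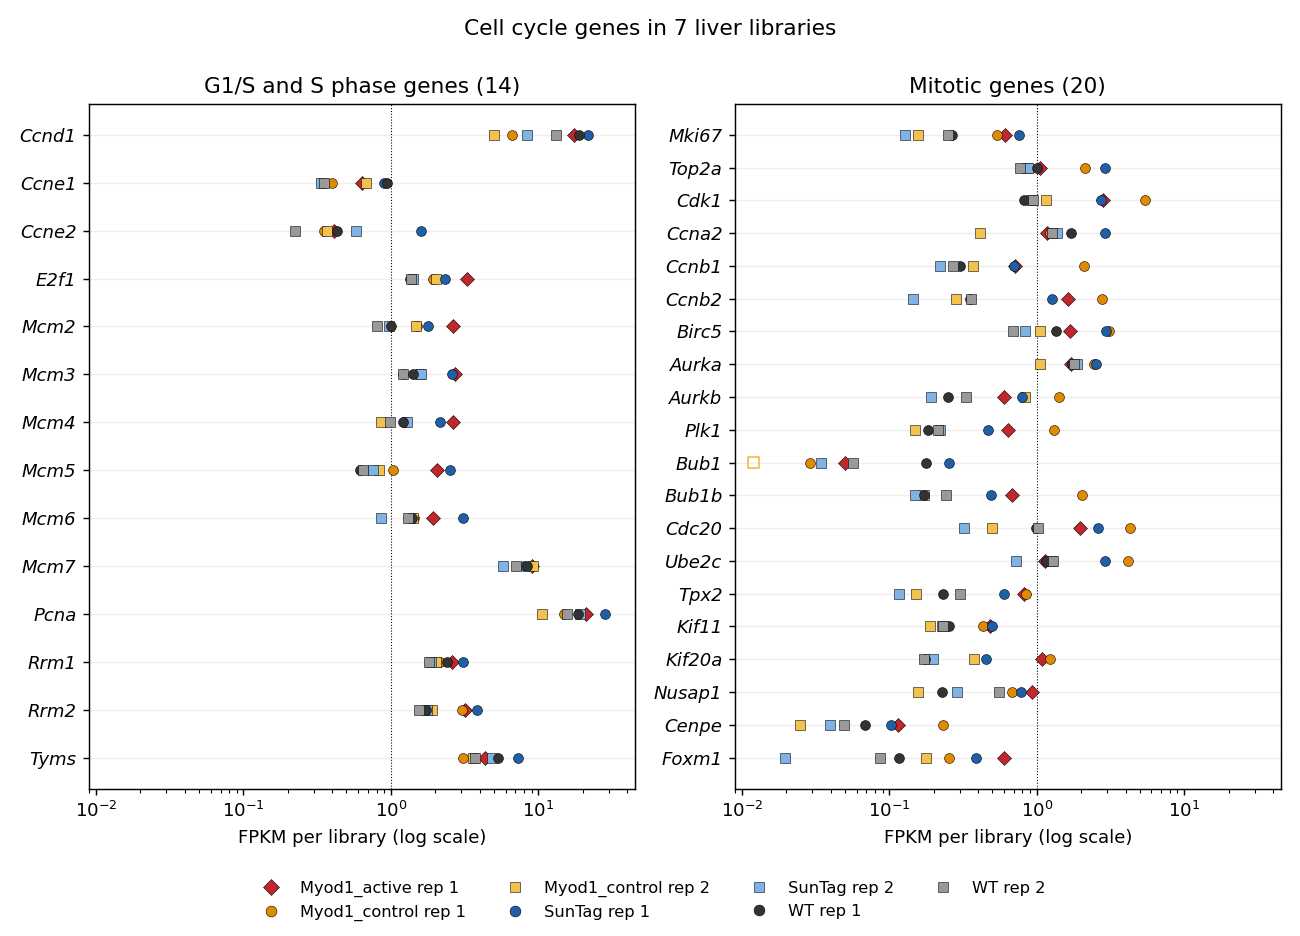
FPKM of each of the 34 genes in each library on a log axis, with the S phase set on the left and the mitotic set on the right. The dotted line marks an FPKM of 1, and the open square for Bub1 marks a value listed at 0 in Myod1_control replicate 2. SunTag replicate 1 (dark blue) is the highest of the SunTag and WT libraries in all 20 mitotic genes, and Myod1_control replicate 1 (orange) lies right of replicate 2 (yellow) in all 20.

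Summed over the S phase set, FPKM was 74.3 in Myod1_active, 48.3 and 41.6 in Myod1_control, 89.5 and 49.7 in SunTag, and 63.6 and 49.8 in WT. Ccnd1 and Pcna, the most abundant members, carry much of this sum. Without them it was 35.6 FPKM in Myod1_active, 26.6 and 25.9 in Myod1_control, 39.3 and 22.1 in SunTag, and 26.2 and 21.1 in WT. The mitotic set summed to 20.5 FPKM in Myod1_active, 36.6 and 9.33 in Myod1_control, 27.1 and 8.88 in SunTag, and 11.5 and 10.9 in WT. The 2 sums parted most in Myod1_control replicate 1. The mitotic sum was 0.757 of the S phase sum in Myod1_control replicate 1, and between 0.179 and 0.303 of it in the other 6 libraries.

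**Figure D2:**
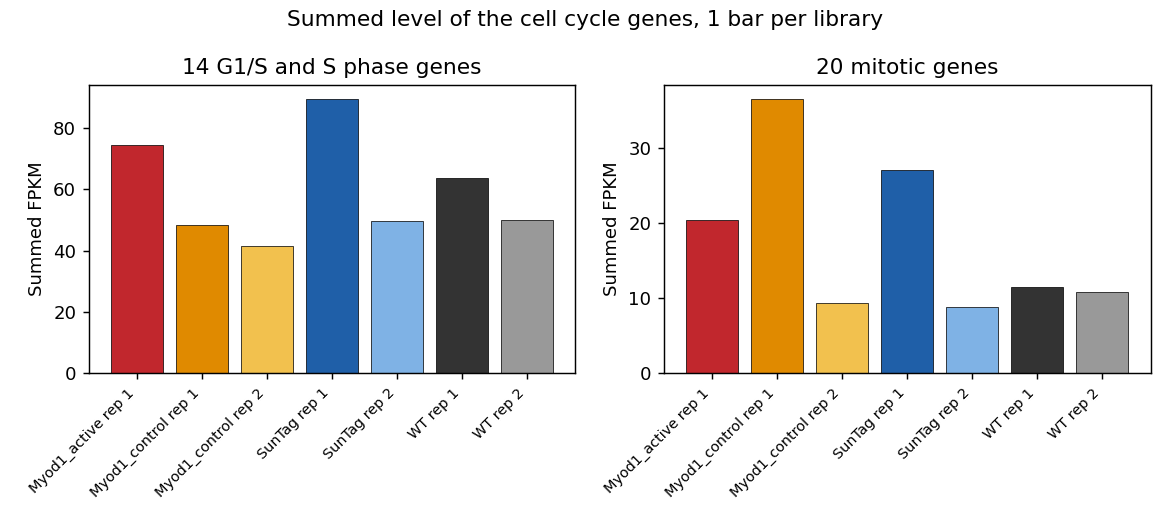
Summed FPKM of the 14 S phase genes (left) and the 20 mitotic genes (right), 1 bar per library, with no error bars because each bar is a single library. The mitotic sum is highest in Myod1_control replicate 1 at 36.6, while its S phase sum of 48.3 is below the 74.3 of Myod1_active.

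The 2 libraries of Myod1_control differed in their mitotic genes. All 20 mitotic genes were higher in Myod1_control replicate 1 than in replicate 2 (47.4% of the 15683 genes in the members' range of mean FPKM were), and 17 of the 20 were at least 2-fold higher (7.49% of those genes). The median ratio over the 19 genes with a value above 0 in both was 3.43, against 0.983 over the genes in that range. In the S phase set no gene of 14 reached 2-fold and the median ratio was 1.02, with Ccne1, a cyclin of S phase entry, the lowest at 0.582 and Rrm2, the small subunit of ribonucleotide reductase, the highest at 1.60.

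The widest ratio was that of Bub1b, a kinase of the spindle checkpoint, at 2.04 FPKM in replicate 1 (deposited bounds 1.07 and 2.68) and 0.172 FPKM in replicate 2 (0.0547 and 0.470), which is 11.9-fold. Ccnb2, a B-type cyclin that drives mitosis, had 2.76 FPKM (2.06 and 3.40) and 0.283 FPKM (0.141 and 0.422). In both the bounds lay apart. Bounds lay apart with replicate 1 higher in 16 of 20 mitotic genes and in 2 of 14 S phase genes, against 8.46% of genes in range. Cdk1, the kinase that B-type cyclins activate, had 5.40 and 1.16 FPKM in the 2 controls. Cdc20, which turns on the anaphase-promoting complex, had 4.27 and 0.497 FPKM, and its partner enzyme Ube2c had 4.15 and 1.27 FPKM. Ccnb1 had 2.11 and 0.368 FPKM, Plk1, a mitotic kinase, 1.30 and 0.149 FPKM, and the centromere motor Cenpe 0.232 and 0.0249 FPKM. In each of these, replicate 1 was the highest of all 7 libraries. The 3 that fell short of 2-fold or had no ratio were Foxm1, a transcription factor for mitotic genes (0.253 and 0.178 FPKM), Aurkb, the kinase of the chromosomal passenger complex (1.41 and 0.828 FPKM), and Bub1 (0.0292 FPKM and listed at 0).

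A further list of 70 mitotic genes outside the members showed 58 higher in replicate 1 and 36 at least 2-fold higher. In a list of 38 other replication genes 23 were higher and 5 at least 2-fold higher. Among the 12 mitotic members that overlap no other gene, 10 were at least 2-fold higher. After scaling the libraries by the median ratio of their genes the counts were again 17 of 20 and 0 of 14 (7.52% of genes in range). Among markers of other cells, lymphocyte markers (10 genes, 3 at 0 in each control) summed to 3.53 FPKM in replicate 1 and 1.68 FPKM in replicate 2, with Cd4 at 2.90 and 0.201 FPKM, while Cd3e was at 0 and 0.0219 FPKM and Ms4a1 and Nkg7 at 0 in both. Neutrophil and precursor markers summed to 0.731 and 1.49 FPKM, erythroid markers to 52.4 and 54.4 FPKM, Kupffer cell markers to 63.4 and 71.9 FPKM, and cholangiocyte markers to 25.2 and 62.6 FPKM. Plasma cell markers summed to 284.5 and 233.5 FPKM, with the joining chain gene Igj at 0.0684 and 0.341 FPKM, and stellate cell markers to 55.2 and 47.8 FPKM. The lymphocyte, plasma cell and stellate cell sums were higher in replicate 1 and the other 4 lower. Of genes in range, 47.4% were higher in replicate 1. By marker, replicate 1 was higher in 4 of 10 lymphocyte, 3 of 6 plasma cell and 6 of 9 stellate cell genes. In the other lists it was 2 of 10 Kupffer cell, 4 of 10 neutrophil and precursor, 5 of 10 erythroid and 1 of 8 cholangiocyte genes. Sdc1 (134 and 122 FPKM) and Xbp1 (150 and 111 FPKM) made up most of the plasma cell sum. The part of these cells in the result was not tested.

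**Figure D3:**
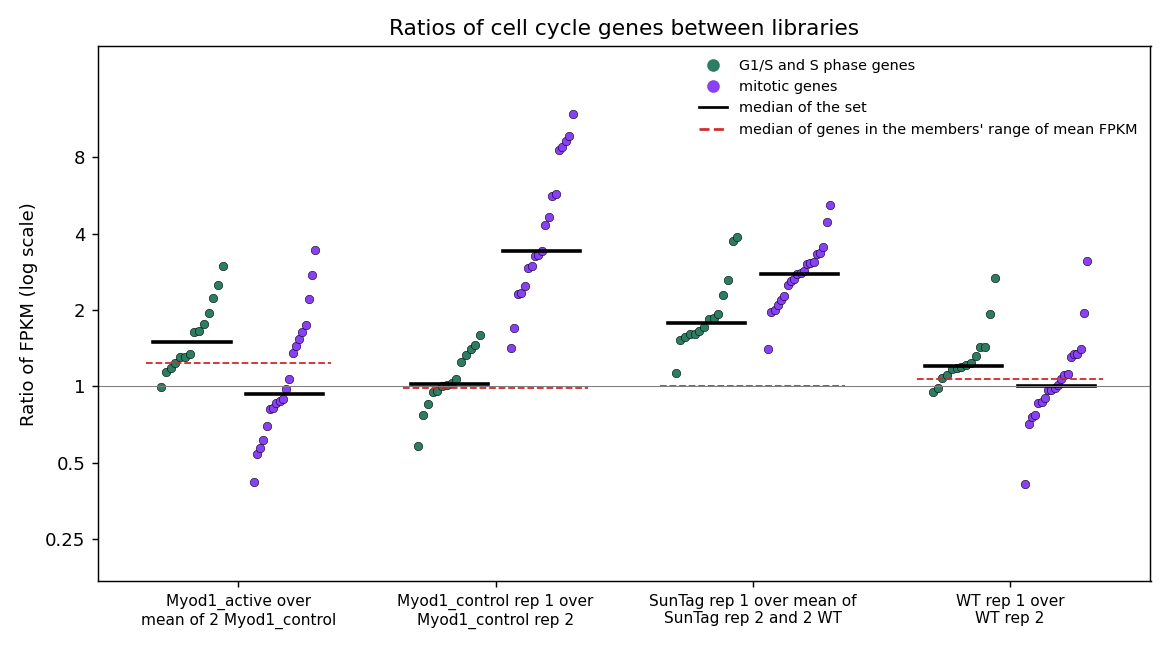
Ratio of FPKM between libraries for each cell cycle gene on a log axis, S phase set in green and mitotic set in purple, with black lines at the set medians and red dashed lines at the median of genes in the same range of mean FPKM. The mitotic median is 3.43 for Myod1_control replicate 1 over replicate 2 and 0.934 for Myod1_active over the controls, while the S phase medians are 1.02 and 1.49. Bub1, at 0 in Myod1_control replicate 2, has no point there.

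Myod1_active was set against Myod1_control to see what differed with Myod1 activation. By limma none of the 26 tested members passed an adjusted p of 0.05, a threshold met by 0.254% of the 15744 genes tested, and 1 member had an unadjusted p under 0.05, against 19.5% of genes. The S phase set lay above the controls in most genes and the mitotic set did not. Myod1_active was above both controls in 12 of 14 S phase genes and in 5 of 20 mitotic genes, where 55.7% of genes in the members' range were. The high background comes with a shift of the median tested gene by 0.25 on the log2 scale. After median-ratio scaling the counts were 8 of 14 and 3 of 20, against 36.4% of genes.

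Ccnd1 (cyclin D1, ENSMUSG00000070348, chr7:152115836-152125774 on mm9), which starts the G1 program, had 17.5 FPKM in Myod1_active, against 6.68 and 5.02 FPKM in Myod1_control. Its log2 difference was 1.44 ± 0.56 (SE), 1.19 beyond the median gene, with an adjusted p of 0.258 by limma. It stood far above both controls here, but SunTag and WT livers had 8.41 to 21.7 FPKM. Mcm4 (ENSMUSG00000022673, chr16:15623990-15637493 on mm9), a subunit of the replicative helicase, had 2.64 FPKM in Myod1_active, against 1.25 and 0.859 FPKM in Myod1_control. Its log2 difference was 0.83 ± 0.27, 0.58 beyond the median gene, with an unadjusted p of 0.0270 and an adjusted p of 0.218 by limma. Mcm4 was the member with an unadjusted p under 0.05, and it did not pass the adjusted test. Its difference was 1.27 with a pseudocount of 0.1 and 0.55 after quantile normalization.

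Pcna (ENSMUSG00000027342, chr2:132074898-132079050 on mm9) had 21.2 FPKM in Myod1_active, against 15.0 and 10.7 FPKM in Myod1_control, a log2 difference of 0.70 ± 0.32 with an adjusted p of 0.298 by limma. The helicase subunits Mcm3 and Mcm2 had 2.73 and 2.63 FPKM in Myod1_active, against 1.22 and 1.58 FPKM for Mcm3 and 1.52 and 1.47 FPKM for Mcm2 in Myod1_control. Their log2 differences were 0.64 ± 0.25 and 0.54 ± 0.25, with adjusted p of 0.262 and 0.304 by limma. E2f1, the transcription factor that Rb holds in check, had 3.27 FPKM in Myod1_active, against 1.95 and 2.03 FPKM in Myod1_control (0.51 ± 0.24, adjusted p = 0.301 by limma). Relative to the median gene these 4 differences were 0.45, 0.39, 0.29 and 0.26 for Pcna, Mcm3, Mcm2 and E2f1. Each was above both controls, and none passed the adjusted test. After quantile normalization the differences were 0.43, 0.37, 0.27 and 0.23 in the same order.

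Mcm5 had 2.07 FPKM in Myod1_active, against 1.03 and 0.829 FPKM in Myod1_control, and Mcm6 had 1.92 FPKM, against 1.44 and 1.42 FPKM. The subunit Mcm7 was the exception among the 6 helicase genes, with 9.13 FPKM in Myod1_active and 9.21 and 9.17 FPKM in Myod1_control. The nucleotide synthesis genes were closer to the controls: Rrm1, the large subunit of ribonucleotide reductase, had 2.58 FPKM against 2.17 and 2.02 FPKM, Rrm2 had 3.21 FPKM against 3.02 and 1.89 FPKM, and Tyms, thymidylate synthase, had 4.36 FPKM against 3.07 and 3.61 FPKM. After median-ratio scaling Rrm1, Rrm2 and Tyms lay between the controls. Ccne2 had 0.413 FPKM against 0.352 and 0.372 FPKM, and lay below both controls once scaled. The median log2 difference of the S phase set was 0.41, against 0.16 for genes in the members' range. It was 0.18 after median-ratio scaling and 0.13 after quantile normalization.

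In the mitotic set the 2 controls were so far apart that Myod1_active fell between them in 13 of 20 genes (26.5% of genes in range). Cdk1 had 2.83 FPKM in Myod1_active, between 5.40 and 1.16 FPKM in Myod1_control, Ccnb2 had 1.62 FPKM, between 2.76 and 0.283 FPKM, and Cdc20 had 1.95 FPKM, between 4.27 and 0.497 FPKM. Spindle genes did likewise: Tpx2 had 0.817 FPKM, between 0.847 and 0.151 FPKM, and the motor Kif20a had 1.09 FPKM, between 1.23 and 0.374 FPKM. Above both controls were Mki67, the proliferation antigen (0.606 FPKM against 0.537 and 0.156 FPKM), the spindle motor Kif11 (0.480 FPKM against 0.435 and 0.188 FPKM), Nusap1, a microtubule binder (0.926 FPKM against 0.680 and 0.157 FPKM), Foxm1 (0.595 FPKM against 0.253 and 0.178 FPKM) and Bub1 (0.0504 FPKM against 0.0292 FPKM and 0). Below both were Ube2c (1.14 FPKM against 4.15 and 1.27 FPKM) and Aurkb (0.604 FPKM against 1.41 and 0.828 FPKM). The median log2 difference of the mitotic set was 0.047. Without Myod1_control replicate 1 it was 0.46, and without replicate 2 it was -0.42. It was -0.077 after median-ratio scaling, -0.12 after quantile normalization and 0.33 with a pseudocount of 0.1, so its sign changed with the setting. The S phase median was 0.51 and 0.44 under the same omissions. By the deposited bounds, Myod1_active lay apart above control replicate 1 in 8 S phase and 0 mitotic genes (29.5% of genes in range), and apart below it in 0 and 9 (5.53%). It lay apart above control replicate 2 in 8 S phase and 10 mitotic genes (28.6%).

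Marker sums differed in this comparison too. Lymphocyte markers summed to 8.53 FPKM in Myod1_active, of which Cd4 was 7.38 FPKM and 5 of 10 markers were at 0, against 3.53 and 1.68 FPKM in Myod1_control. Endothelial markers summed to 39.0 FPKM in Myod1_active, against 55.5 and 58.1 FPKM, and cholangiocyte markers to 89.1 FPKM, against 25.2 and 62.6 FPKM. Fetal liver markers summed to 4.08 FPKM in Myod1_active, against 0.509 and 1.46 FPKM, neutrophil and precursor markers to 2.37 FPKM, against 0.731 and 1.49 FPKM, and plasma cell markers to 347.5 FPKM, against 284.5 and 233.5 FPKM. Stellate cell markers summed to 39.8 FPKM in Myod1_active, against 55.2 and 47.8 FPKM, and erythroid markers to 47.4 FPKM, against 52.4 and 54.4 FPKM. Single genes carried much of the cholangiocyte and plasma cell sums: Spp1 had 70.6 FPKM in Myod1_active, Sdc1 208.9 FPKM and Xbp1 137.1 FPKM. Myod1_active was above both controls in 2 of 8 cholangiocyte, 2 of 6 plasma cell and 2 of 9 stellate cell markers. The stellate cell 2 were Col1a1 and Col1a2. It was so in 4 of 10 lymphocyte and 4 of 10 neutrophil and precursor markers. For fetal liver, erythroid and endothelial markers it was 5 of 7, 3 of 10 and 0 of 10. For Kupffer cell and hepatocyte markers it was 3 of 10 and 4 of 10. Beside these counts, 55.7% of genes in the members' range were above both controls. Kupffer cell markers were at 71.2 FPKM in Myod1_active, within the range of the controls. The part of these cells in the S phase result was not tested.

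SunTag was set against WT to see what the knockin alone changes. By limma 0 of 26 tested members passed an adjusted p of 0.05 (0.127% of genes did) and 0 had an unadjusted p under 0.05 (1.95% of genes did). The ratio of the SunTag mean to the WT mean had a median of 1.43 in the S phase set and 1.58 in the mitotic set, but the 2 SunTag libraries were far apart. SunTag replicate 1 was at least 2-fold above replicate 2 in 6 of 14 S phase and 19 of 20 mitotic genes (8.47% of genes in range), while WT replicate 1 was so above WT replicate 2 in 1 gene of each set (5.06%). By the deposited bounds, SunTag replicate 1 lay apart above replicate 2 in 12 of 14 S phase and 12 of 20 mitotic genes. WT replicate 1 lay apart above WT replicate 2 in 4 and 0. The share of all genes was not counted for these bounds. SunTag replicate 1 was the highest of the 4 libraries in 12 of 14 S phase genes and in all 20 mitotic genes (34.8% of genes in range), and at least 1.5-fold above the next in 8 and 17 (9.25%). The median ratio of SunTag replicate 1 to the mean of the other 3 libraries was 1.78 in the S phase set and 2.78 in the mitotic set, against 1.01 over genes in range. Ccne1 and Mcm7 were the members in which it was not the highest.

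Cdc20 had 2.59 and 0.319 FPKM in SunTag and 0.983 and 1.02 FPKM in WT. Top2a, the topoisomerase that untangles sister chromatids, had 2.93 and 0.877 FPKM in SunTag and 1.001 and 0.764 FPKM in WT. In Cdc20 both WT libraries lay between the SunTag libraries, and in Top2a the lower SunTag library lay between the WT libraries. Mki67 had 0.762 and 0.128 FPKM in SunTag and 0.267 and 0.251 FPKM in WT, and Birc5, the survivin of the passenger complex, had 2.94 and 0.831 FPKM in SunTag and 1.34 and 0.689 FPKM in WT. Ccna2, the cyclin of S phase and G2, had 2.91 and 1.37 FPKM in SunTag and 1.71 and 1.27 FPKM in WT. Aurka, a centrosome kinase, had the lowest ratio of SunTag replicate 1 to the other 3 among the mitotic genes, 1.40, with 2.52 and 1.88 FPKM in SunTag and 1.73 and 1.80 FPKM in WT. SunTag replicate 2 was below both WT libraries in 12 of 20 mitotic genes and 4 of 14 S phase genes (29.0% of genes in range).

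The S phase set showed the same library high, with smaller ratios. Mcm6 had 3.11 and 0.858 FPKM in SunTag and 1.40 and 1.30 FPKM in WT, and Mcm5 had 2.54 and 0.759 FPKM in SunTag and 0.618 and 0.651 FPKM in WT. Ccne2, the other cyclin E, had 1.60 and 0.577 FPKM in SunTag and 0.433 and 0.225 FPKM in WT, a log2 difference of 0.61 ± 0.28 with an adjusted p of 1 by limma. That difference was 1.37 with a pseudocount of 0.1, 0.25 without SunTag replicate 1 and 0.97 without SunTag replicate 2. Both SunTag libraries were above both WT libraries in 7 of 14 S phase genes (Ccne2, E2f1, Mcm3, Mcm4, Mcm5, Pcna and Rrm2) and in 3 of 20 mitotic genes (Aurka, Plk1 and Kif20a), against 15.3% of genes in range. For Pcna they had 28.5 and 19.1 FPKM, against 18.5 and 15.6 FPKM in WT, and for Mcm3 2.60 and 1.61 FPKM, against 1.40 and 1.20 FPKM. After median-ratio scaling the counts were the same (15.2% of genes), with Mcm2 in place of E2f1. The median log2 difference was 0.33 in the S phase set and 0.16 in the mitotic set, against 0.016 for genes in range. Without SunTag replicate 1 the medians were 0.059 and -0.087.

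Neutrophil, Kupffer cell, lymphocyte, stellate cell, plasma cell and fetal liver markers were also mostly highest in SunTag replicate 1 among the SunTag and WT libraries. Of genes in range, 34.8% were highest there. Neutrophil and precursor markers were highest there in 10 of 10 genes and summed to 47.8 and 6.40 FPKM in SunTag and 16.4 and 9.48 FPKM in WT. Kupffer cell markers were highest there in 10 of 10 as well, with the sums given above, and lymphocyte markers in 8 of 10, with sums of 17.9 and 10.9 FPKM in SunTag and 12.4 and 9.83 FPKM in WT. Endothelial markers, highest there in 3 of 10, summed to 190 and 199 FPKM in SunTag and 197 and 184 FPKM in WT. Erythroid markers were highest there in 4 of 10 genes. Stellate cell markers, highest there in 6 of 9, summed to 349.8 and 259.6 FPKM in SunTag and 255.4 and 301.6 FPKM in WT. Fetal liver markers, highest there in 4 of 7, summed to 8.55 and 3.20 FPKM in SunTag and 2.42 and 2.86 FPKM in WT. Plasma cell markers were highest there in 4 of 6 genes, hepatocyte markers in 3 of 10 and cholangiocyte markers in 2 of 8. The part of these cells in the cell cycle pattern was not tested.

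**Figure D4:**
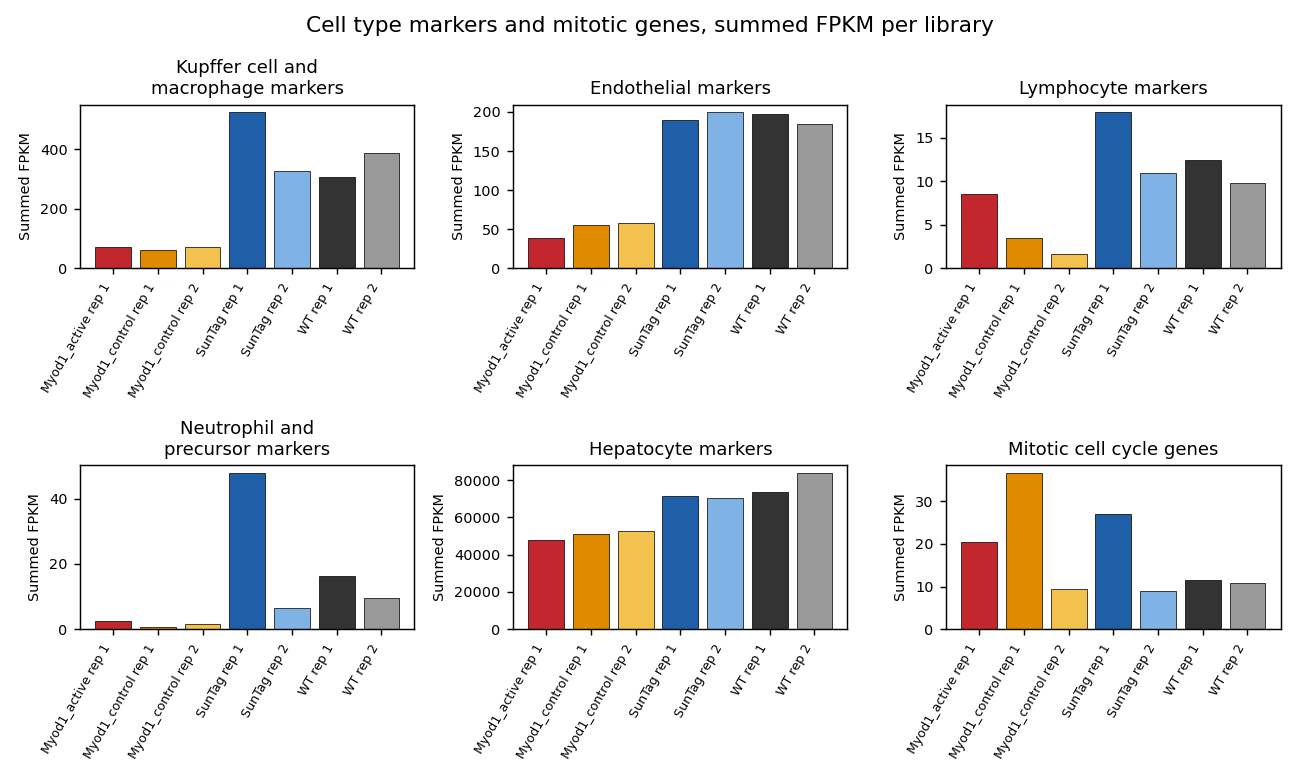
Summed FPKM per library for 5 marker lists and the mitotic set, 1 bar per library and a separate linear axis for each panel. In SunTag replicate 1 the neutrophil and precursor sum (47.8) and the mitotic sum (27.1) are both the highest of the SunTag and WT libraries, while in Myod1_control replicate 1 the mitotic sum of 36.6 stands beside a neutrophil and precursor sum of 0.731.

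Myod1_control was set against SunTag as background, since both are SunTag-dCas9 livers of different experiments. It shares the Myod1_control libraries with one of the comparisons above and the SunTag libraries with the other. By limma 0 of 26 members passed, against 24.3% of genes (7.30% higher and 17.0% lower), and 2 had an unadjusted p under 0.05, Pcna and Tyms, against 41.7% of genes. Pcna had 15.0 and 10.7 FPKM in Myod1_control, against 28.5 and 19.1 FPKM in SunTag, a log2 difference of -0.84 ± 0.26 with an adjusted p of 0.0756 by limma. Tyms had 3.07 and 3.61 FPKM in Myod1_control, against 7.33 and 4.89 FPKM in SunTag (-0.69 ± 0.24, adjusted p = 0.0961 by limma). Both lay below SunTag in every library. The direction was the same for Ccnd1 (-1.10 ± 0.46, adjusted p = 0.138 by limma), Ccna2 (-0.78 ± 0.34, 0.155) and Ccne2 (-0.57 ± 0.28, 0.187), and opposite for Mcm7 (0.38 ± 0.18, 0.183). The median gene was shifted by -0.14, so that Pcna was at -0.70 and Mcm7 at 0.52 relative to it. With a pseudocount of 0.1 the differences of Ccna2 and Ccne2 were -1.35 and -1.22. Without SunTag replicate 1 those of Ccnd1, Ccna2, Ccne2 and Tyms were -0.47, -0.42, -0.21 and -0.44, and that of Mcm7 was 0.59. Without SunTag replicate 2 they were -1.74 for Ccnd1, -0.93 for Ccne2 and 0.18 for Mcm7, and without Myod1_control replicate 2 that of Ccna2 was -0.45.

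Both controls lay below both SunTag libraries in 6 of 14 S phase genes (Ccnd1, Ccne2, Mcm3, Mcm4, Pcna and Tyms) and 2 of 20 mitotic genes (Ccna2 and Bub1), against 39.0% of genes in range. After median-ratio scaling the counts were 4 of 14 (Ccnd1, Ccne2, Pcna and Tyms) and 1 of 20 (Bub1), against 30.9% of genes. Unscaled, they lay above both in Mcm7 and Aurkb only, against 21.8% of genes. The other members overlapped between the groups. Without SunTag replicate 2, which leaves 1 library in the SunTag group, the log2 differences were -1.74 for Ccnd1 and -0.93 for Ccne2. Of the marker lists, 8 of 10 Kupffer cell, 9 of 10 endothelial, 6 of 7 tested lymphocyte and 4 of 9 stellate cell markers passed as lower in Myod1_control, beside the 17.0% of genes given above. The part of these cells was not tested.

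Beyond the members, 151 other cell cycle genes were listed by role, of which 149 had a row and 105 were tested. In Myod1_active against Myod1_control 0 passed by limma and 17 had an unadjusted p under 0.05, against 19.5% of all genes. Those named are among the 4 largest differences of their lists, and others of those 4 are not named. Gmnn, geminin, which restrains the licensing of origins, had 13.3 FPKM in Myod1_active, against 5.45 and 4.13 FPKM in Myod1_control. E2f3 had 4.75 FPKM against 1.06 and 1.72 FPKM. Lig1, the ligase that seals Okazaki fragments, had 2.58 FPKM against 0.597 and 0.931 FPKM. Ccnd3, cyclin D3, had 20.3 FPKM against 10.4 and 9.31 FPKM. Among the mitotic genes Cenpf, a kinetochore protein, had 1.15 FPKM against 0.251 and 0.121 FPKM, and the kinetochore gene Spc25 had 1.43 FPKM against 3.44 and 3.74 FPKM. The Cdk inhibitor Cdkn1c had 2.70 FPKM against 0.337 and 1.51 FPKM. Each of the first 4 stood above both controls, with adjusted p by limma of 0.220, 0.198, 0.158 and 0.154 for Gmnn, E2f3, Lig1 and Ccnd3. They were picked by their difference in this same comparison. Of the 149 genes with a row, 84 were above both controls, beside 55.7% of genes in the members' range.

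In SunTag against WT 0 of the 105 passed by limma and 2 had an unadjusted p under 0.05, against 1.95% of all genes. In Myod1_control against SunTag 23 had an unadjusted p under 0.05, against 41.7% of all genes, and 10 passed, all lower in Myod1_control. Among the 10 were Orc6, Rfc5 and Lig1 of DNA replication, Bub3, Cks2 and Pttg1 of mitosis, Ccnd2, the anaphase-promoting complex subunit Anapc11, and the Cdk inhibitor Cdkn2c. Lig1 had 0.597 and 0.931 FPKM in Myod1_control, against 4.33 and 3.69 FPKM in SunTag, a log2 difference of -1.51 ± 0.16 with an adjusted p of 0.0162 by limma. Cks2, a subunit of Cdk complexes, had 13.5 and 13.9 FPKM in Myod1_control, against 37.1 and 27.4 FPKM in SunTag (-1.16 ± 0.19, adjusted p = 0.0231 by limma). The share that passed, 10 of 105, stood beside 17.0% of all genes that were lower.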

How the data were processed

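RNA from 7 liver libraries was compared as deposited. The labels' protocols name a Direct-zol MiniPrep extraction of total RNA and Illumina sequencing. The submitters' processing notes name mm9 as the build, with Cufflinks 2.2.1, cutadapt 1.11 and TopHat2 2.1.1, but no settings, gene annotation or use of strand. The deposited unit is FPKM per gene with bounds and a status, per the file headers. No read counts were in the tables, so depth is unknown and no counting intervals were computed.

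Rows with a status other than OK in at least 1 library (343) were dropped, and rows sharing a symbol (244 symbols) summed. Genes with an FPKM of at least 1 in at least 1 library (15744) were tested as log2 of FPKM plus 1 in limma (version 3.58.1, R 4.3.3): 1 mean per group over all 7 libraries, trended prior, two-sided, Benjamini-Hochberg over all genes, threshold 0.05. Residual degrees of freedom were 3. The lone Myod1_active library is assumed to vary like the others. This scale understates changes of low genes. Deposited bounds were compared over the genes in the members' range with a single row (15541). Counts of libraries that do not overlap used the 15683 genes with a mean FPKM within that of the members. Any pair of tables shared at most 1 identical value above 0, so none was a copy. Same-numbered replicates did not deviate together across genes, so numbers were not used as pairs. Whether they share a batch was not tested.

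The members and lists were chosen with earlier results of these data known. Of the other cell cycle lists, genes past the threshold and the 4 largest differences per list in Myod1_active against Myod1_control could be named; fewer were, and 1 gene is not reported here. Log2 differences are given for members with an unadjusted p under 0.1. Promoters were RefSeq windows on GRCm38.p6, another build than the tables. Alternatives were other pseudocounts (0.1), filters, scalings, priors, a replicate term and leaving out each library.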

Additional observations from a re-analysis of the deposited data

How the results depend on the processing

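With the settings tried (17 in all), the number of members called stayed at 0 in Myod1_active against Myod1_control and in SunTag against WT. In Myod1_control against SunTag it was 1 without genes under 300 bp and 1 with a replicate block, Pcna in both (adjusted p 0.0408 and 0.0388 by limma), and 0 to 4 when a library was left out, with 4 without SunTag replicate 2. Over all tested genes, 4841 of 14515 were called without genes under 300 bp, beside 1 of 26 members. With the replicate block it was 2928 of 15744 genes, beside 1 of 26 members. The block rests on numbers alone: same-numbered libraries correlated at 0.000757 to 0.0425 in their deviations. Whether they share a batch was not tested. The S phase median in Myod1_active against Myod1_control was 0.13 after quantile normalization. Leaving out 1 library gave -0.42 to 0.46 for the mitotic median in that comparison, 0.0588 to 0.60 for the S phase median in SunTag against WT, and -0.61 to 0.12 for the S phase and -0.22 to 0.53 for the mitotic median in Myod1_control against SunTag. The cause was not tested. Calls over all genes ran from 0 to 253, 5 to 78 and 48 to 4841 in the comparisons of Myod1_active with Myod1_control, SunTag with WT and Myod1_control with SunTag. The 13 named member differences kept their direction in every setting in which the gene was tested; Ccne2 fell below the filter of a mean FPKM of at least 1. Read depth is unknown.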
